A study of Mus musculus with 6 samples.

Results

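The nuclear-encoded subunits of respiratory complex III, complex IV and ATP synthase, with cytochrome c, were described in the wild-type mouse retina. Members were chosen by gene symbol, as every row whose symbol begins with Uqcr, with Cox followed by a digit from 4 to 8, or with Atp5, together with Cyc1 and Cycs. The symbol rule itself used no measured value, though the members were chosen with earlier results of these data known. It found 44 of the 15465 genes in the deposited tables. They were 9 genes of complex III, the electron carrier Cycs, 16 genes of complex IV, 15 genes of ATP synthase and 3 genes that share the letters but encode no subunit. Those 3 were Cox4nb, now named Emc8, of the endoplasmic reticulum membrane complex, Atp5sl, now named Dmac2, of complex I assembly, and Atp5s, a coupling factor B-like protein. The other 41 are called the subunits here, with cytochrome c counted among them.

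RNA sequencing was carried out on retina of wild-type C57BL6/J mice in 6 samples, which the titles give as 3 biological replicates with 2 technical replicates each. Each library came from RNA pooled from 5 mice, and both technical replicates of a biological replicate share 1 deposited column, so there were 3 columns, called pools 1 to 3 here, and n was 3. There was 1 group, with no treatment or second genotype, and the labels give no age or sex of the mice. The source labels number the samples in a way that conflicts with the titles, which were followed, so every SD rests on the titles. The values were taken as RPKM, reads scaled by transcript length in kilobases and by library size, which corrects for length, so that levels of different genes can be set side by side. They summed to 275995, 302634 and 249532 RPKM in pools 1, 2 and 3, no read depth could be derived, and 149 genes were listed at 0 in every pool. All 9 rod photoreceptor markers were present, with summed levels of 11821, 14054 and 11394 RPKM in pools 1, 2 and 3. Lens markers, at 4263, 3042 and 4489 RPKM summed, and pigment epithelium markers, at 371, 351 and 188 RPKM summed, were present in the same columns. In a whole tissue, fewer cells of a type and less RNA per cell cannot be told apart.

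Complex III passes electrons from ubiquinol to cytochrome c, and complex IV passes them on from cytochrome c to oxygen, and both pump protons across the inner mitochondrial membrane. ATP synthase lets the protons flow back through a ring of c subunits, which turns a central stalk inside the catalytic head and so drives the making of ATP. Most subunits are encoded in the nucleus, a few core subunits in the mitochondrial genome, and several complex IV subunits have alternative isoforms known from muscle, heart, lung or testis. Photoreceptors hold dense mitochondria in their inner segments and spend ATP on ion pumping and on the visual cycle.

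The subunits were expressed well above the typical gene, and ATP synthase took the greatest share. Their median level was 60.0 ± 11.3 RPKM (SD, n = 3), beside 6.09 ± 0.396 RPKM over all genes and 8.85 ± 0.607 RPKM over the 12562 genes that averaged at least 1 RPKM. The median was 76.4 ± 17.7 RPKM in complex III, 38.5 ± 7.83 RPKM in complex IV and 60.7 ± 12.3 RPKM in ATP synthase. Without Cox7a2l and the 5 alternative isoforms described below, the other 10 complex IV genes had a median of 70.6 ± 13.0 RPKM. These medians are descriptions of gene lists of unequal make-up, and the ranges over pools of complex III (58.9 to 94.3 RPKM) and ATP synthase (50.2 to 74.2 RPKM) overlapped. Complex II, an entry of electrons to ubiquinone, had a median of 59.4 ± 14.2 RPKM over its 4 genes Sdha, Sdhb, Sdhc and Sdhd. The 44 genes together held 1.31% ± 0.129 of the summed RPKM, of which ATP synthase held 0.605% ± 0.0604, complex IV 0.365% ± 0.0316 and complex III 0.322% ± 0.0363. Of the 44 genes, 11 had a mean of 100 RPKM or more, 21 lay between 10 and 100 RPKM, and 12 were under 10 RPKM. Subunits of 1 complex therefore did not stand at 1 level, and the highest mean was 612-fold the lowest in ATP synthase and 620-fold the lowest in complex IV.

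**Figure D1:**
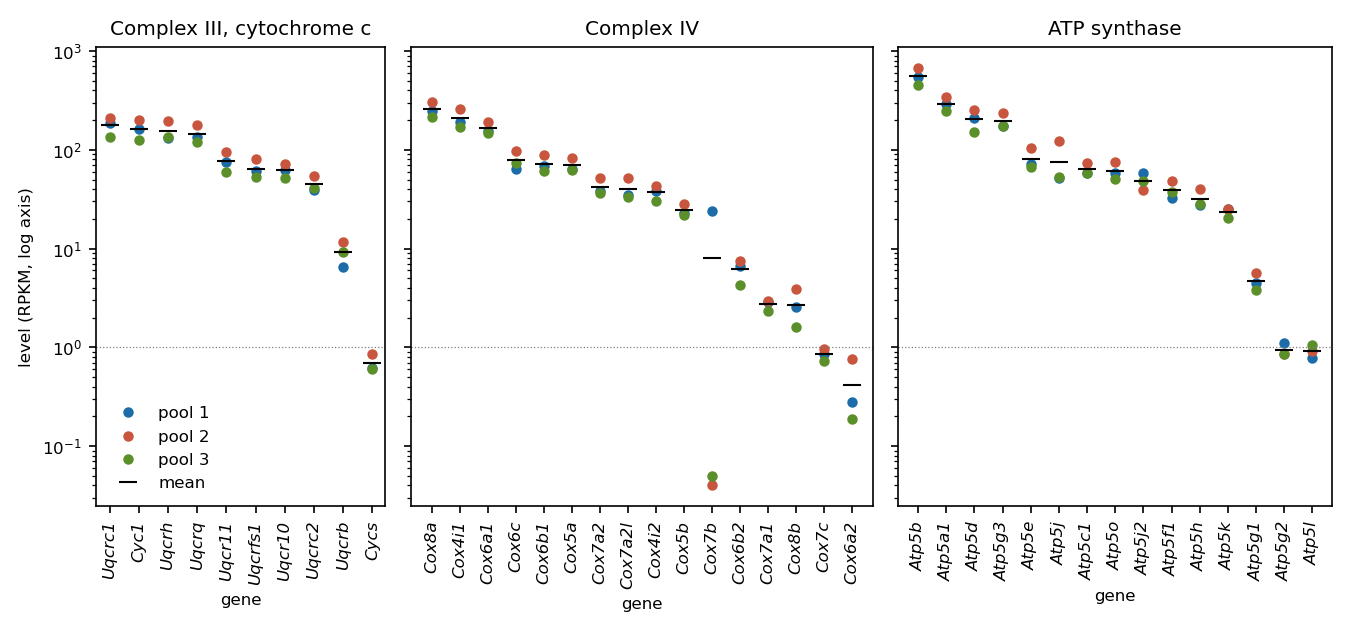
Level in RPKM (log axis) of each of the 41 subunits in each of the 3 pools, by complex and in order of the mean, with a bar at the mean and a dotted line at 1 RPKM. The means run from 0.413 RPKM (Cox6a2) to 559 RPKM (Atp5b), and Cycs, Cox7c, Cox6a2, Atp5g2 and Atp5l lie under 1 RPKM and the pools of Cox7b stand far apart.

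In complex III the core proteins, the cytochrome and the small subunits were abundant, and Uqcrb was the exception. Uqcrc1, the first of the paired core proteins that face the matrix, was at 185.90, 209.73 and 133.79 RPKM in pools 1, 2 and 3. Its partner core protein Uqcrc2 was at 39.51, 53.71 and 41.42 RPKM. The ranges of the core pair did not overlap, and Uqcrc1 stood 3.90-fold above Uqcrc2 on average, by 3.23-fold to 4.71-fold in single pools. Cyc1, the cytochrome c1 that hands electrons to cytochrome c, was at 162.62, 199.27 and 126.87 RPKM. Uqcrfs1, the Rieske iron-sulfur protein that passes electrons to it, was at 60.30, 80.04 and 53.59 RPKM. Cyc1 exceeded Uqcrfs1 in all 3 pools, 2.51-fold on average. Uqcrh, the hinge protein beside cytochrome c1, was at 132.84, 197.43 and 133.53 RPKM and overlapped Cyc1 and Uqcrc1. Of the small subunits, Uqcrq had a mean of 144 ± 30.5 RPKM, Uqcr11 of 76.4 ± 17.7 RPKM and Uqcr10 of 62.4 ± 10.1 RPKM, with Uqcr10 at 62.70, 72.37 and 52.11 RPKM in the 3 pools. Uqcrb, the ubiquinone-binding small subunit, was at 6.51, 11.78 and 9.33 RPKM. Its highest pool lay below the lowest pool of every other complex III gene, and Uqcrq, another small subunit of the complex, stood 15.8-fold above it.

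Cytochrome c, the soluble carrier between the complexes, was listed far below the cytochrome it takes electrons from. Cycs was at 0.61, 0.86 and 0.60 RPKM, and Cyc1 stood 236-fold above it, by 211-fold to 267-fold in single pools. Cycs ranked 13044 of 15465 genes. Its testis counterpart Cyct was not analysed here. The coding sequence of Cycs is printed below with the bases shared with other genes marked, and the part of shared sequence in its level was not tested.

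In complex IV the most abundant genes were Cox8a, Cox4i1 and Cox6a1, which are the broadly expressed members of families with tissue isoforms. Cox8a, a small membrane-spanning subunit, was at 248.16, 305.24 and 215.21 RPKM in pools 1, 2 and 3. Cox4i1, the subunit known for adenine nucleotide regulation of the enzyme, was at 191.73, 261.95 and 170.55 RPKM. Cox6a1 was at 155.97, 190.19 and 147.43 RPKM, and the ranges of Cox6a1 and Cox4i1 overlapped. Cox5a, which faces the matrix, was at 64.53, 82.86 and 62.42 RPKM, and Cox5b, the zinc-binding matrix subunit, at 22.68, 28.29 and 22.12 RPKM. The Cox5a level was 2.86-fold that of Cox5b, and this ratio moved little between pools, from 2.82 to 2.93. Of their 50-base stretches, 25.9% in Cox5b and 3.36% in Cox5a are shared with other genes, as described below. The part of this in the ratio was not tested. Cox6c had a mean of 78.2 ± 17.1 RPKM, Cox6b1, which faces the intermembrane space, 72.6 ± 13.9 RPKM and Cox7a2 42.0 ± 8.56 RPKM. Cox7a2l, a relative of Cox7a2 known for joining complex III to complex IV in supercomplexes, was at 35.16, 51.50 and 33.34 RPKM and overlapped Cox7a2 in range. Cox7c, a small subunit with no second isoform, was at 0.86, 0.97 and 0.72 RPKM, and Cox8a stood 301-fold above it.

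The tissue isoforms divided the same way in every family and every pool, with the broadly expressed isoform above the alternative. Cox4i2, the isoform known from lung and from low oxygen, was the alternative at the highest level, at 38.60, 42.64 and 30.21 RPKM. It held 15.3% ± 1.39 of the summed Cox4i level and ranked above the median of all complex IV genes in pool 1 only. Cox4i1 was 5.55-fold above Cox4i2, a log2 ratio of 2.47 ± 0.15 (SD, n = 3). Cox6b2, the isoform known from testis, was at 6.68, 7.52 and 4.29 RPKM and held 7.77% ± 1.20 of the Cox6b level beside Cox6b1 at 68.23, 88.20 and 61.42 RPKM. Cox6b1 stood 11.8-fold above Cox6b2.

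The isoforms known from heart and skeletal muscle were low. Cox7a1 was at 2.87, 2.95 and 2.32 RPKM beside Cox7a2 at 37.87, 51.87 and 36.33 RPKM, which is 14.9-fold higher, and it held 6.14% ± 0.841 of the summed level of Cox7a1 and Cox7a2. Cox8b was at 2.53, 3.87 and 1.60 RPKM, 97.2-fold under Cox8a. Cox6a2 was at 0.28, 0.77 and 0.19 RPKM, and Cox6a1 stood 358-fold above it on the log2(RPKM + 0.1) scale, which understates a ratio to so low a gene. After scaling of the pools to each other, Cox8b and Cox6a2 were highest in pool 2 and Cox7a1 in pool 1. Pool 2 was the highest for 6 of 7 skeletal muscle markers and 3 of 4 heart or slow muscle markers, and also for 34 of the 41 subunits and 34.7% of all genes tested. The summed skeletal muscle markers were at 8.63, 25.96 and 34.75 RPKM in pools 1, 2 and 3, the last mostly from Myl1 at 28.86 RPKM, and the summed heart markers at 2.49, 3.70 and 2.47 RPKM. None of these markers was at 0 in every pool, the fast troponin Tnnt3 was listed at 0 in pool 3, and the part of muscle RNA in these isoform levels was not tested. Of the 4 testis markers only Prm1 was among the rows, at 0.27, 0.16 and 0.21 RPKM.

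Across the 8 isoform pairs with both genes among the rows, of 11 listed, the median log2 ratio was 4.62 ± 0.15, or 24.6-fold. Of these, 3 are pairs among the c subunit genes described below, which share genes with each other, rest on Atp5g1 and Atp5g2 and set no tissue isoform against a broad one. Over the 5 complex IV pairs alone the median was 3.89 ± 0.21, or 14.9-fold. Each pair kept its direction in 3 of 3 pools. A two-sided exact sign-flip test over the pools gave p = 0.25 for each of the 8 pairs, and 0.25 after Benjamini-Hochberg adjustment, which is the smallest value 3 pools allow. The ratios were larger than their spread between pools but cannot pass a threshold of 0.05 with this design. Cox7b2, Cox8c and Cyct, the partners in the remaining pairs, were not analysed here.

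**Figure D2:**
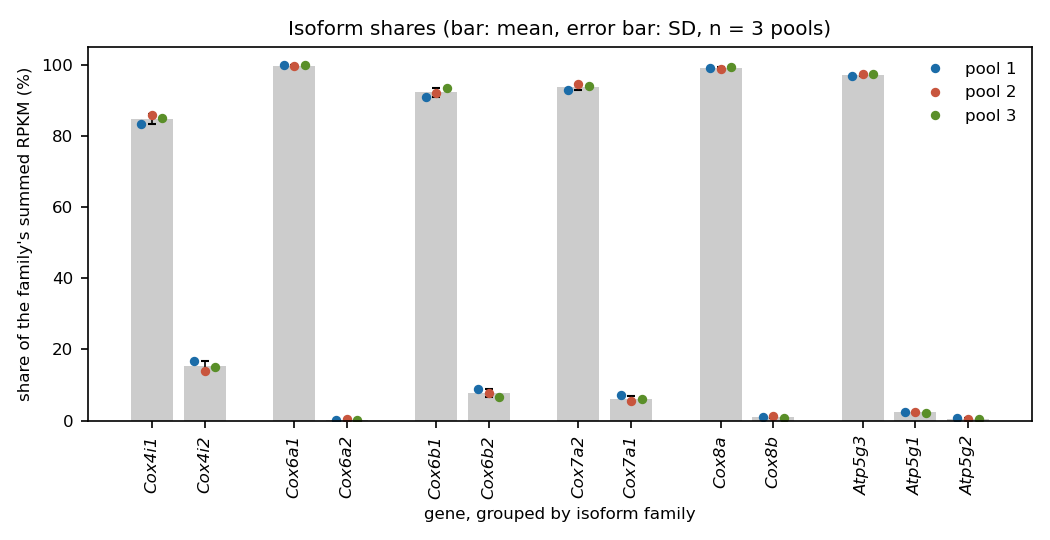
Share of each isoform family's summed RPKM (linear axis from 0) held by each gene, with bars at the mean, error bars of 1 SD over 3 pools and a point for each pool. The broadly expressed isoform holds from 84.7% of the family (Cox4i1) to 99.8% (Cox6a1), and Atp5g3 holds 97.2% of the c subunit genes.

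In ATP synthase the catalytic head stood highest. Atp5b, the catalytic beta subunit, was at 544.50, 675.65 and 456.90 RPKM in pools 1, 2 and 3, and ranked 29 of all genes by its mean of 559 ± 110 RPKM. Atp5a1, the alpha subunit that alternates with beta in the ring, was at 293.28, 340.83 and 244.71 RPKM. The beta to alpha ratio was 1.90, from 1.86 to 1.98 over the pools, although the subunits occur in equal copies in the enzyme. In the central stalk, Atp5c1, the gamma subunit that turns inside the ring, was at 58.87, 74.22 and 57.69 RPKM. Atp5d, the delta subunit at its foot, was at 209.27, 251.48 and 151.62 RPKM, and Atp5e, the epsilon subunit, had a mean of 80.9 ± 19.9 RPKM. Atp5b exceeded Atp5c1 8.74-fold, Atp5e 6.95-fold and Atp5d 2.76-fold. The delta level did not overlap that of gamma, with which it forms the stalk.

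The peripheral stalk, which holds the head still while the ring turns, was lower and more even, with a median of 49.1 ± 10.98 RPKM over 4 genes. Atp5o, the oligomycin sensitivity conferring protein at the top of this stalk, was at 57.55, 75.22 and 50.18 RPKM. Atp5f1, the b subunit, had a mean of 39.2 ± 8.11 RPKM and Atp5h, the d subunit, of 32.0 ± 6.70 RPKM. In Atp5h, Atp5f1 and Atp5o, 90.1%, 78.5% and 67.1% of coding bases lie in sequence shared with other genes, as described below. The part of this in their levels was not tested. Atp5j, coupling factor 6, was at 51.35, 122.30 and 52.92 RPKM and was the least even of the peripheral stalk genes. Of the small subunits that shape ATP synthase dimers, Atp5j2, the f subunit, was at 57.56, 39.54 and 48.46 RPKM and Atp5k, the e subunit, at 24.90, 25.11 and 20.34 RPKM. The g subunit Atp5l was at 0.78, 0.91 and 1.05 RPKM, 609-fold below Atp5b.

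The c subunit, which lines the proton path, is encoded by Atp5g1, Atp5g2 and Atp5g3, which make different import signals and the same mature protein. Nearly all of the deposited level came from Atp5g3, at 172.33, 235.29 and 174.24 RPKM, or 97.2% ± 0.292 of the family. Atp5g1 was at 4.50, 5.64 and 3.83 RPKM, 40.9-fold lower, and Atp5g2 at 1.11, 0.85 and 0.85 RPKM, 186-fold lower. The order Atp5g3, Atp5g1, Atp5g2 held in every pool. The annotated transcripts of Atp5g1 ran from 596 to 4715 bases, and which length the authors used is not given in the sources used here. Multiplied by the median annotated length, the Atp5g3 share was 91.4% ± 0.712 and that of Atp5g1 8.11% ± 0.635.

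The 3 genes differ at many bases, so that reads can tell them apart from each other, and their last 228 coding bases are shown for that reason, from GENCODE M21 on GRCm38. The capitals mark the 58 positions at which the 3 genes are not all alike. The coding parts span chr11:96073104-96075025 (Atp5g1), chr15:102663014-102667749 (Atp5g2) and chr2:73908593-73910993 (Atp5g3), all on the minus strand, and each transcript has 5 exons.
Atp5g1: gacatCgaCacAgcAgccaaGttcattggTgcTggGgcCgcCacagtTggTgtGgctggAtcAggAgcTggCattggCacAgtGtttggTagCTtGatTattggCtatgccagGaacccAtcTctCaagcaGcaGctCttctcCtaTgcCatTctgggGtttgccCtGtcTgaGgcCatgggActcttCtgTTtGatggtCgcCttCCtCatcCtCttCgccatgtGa
Atp5g2: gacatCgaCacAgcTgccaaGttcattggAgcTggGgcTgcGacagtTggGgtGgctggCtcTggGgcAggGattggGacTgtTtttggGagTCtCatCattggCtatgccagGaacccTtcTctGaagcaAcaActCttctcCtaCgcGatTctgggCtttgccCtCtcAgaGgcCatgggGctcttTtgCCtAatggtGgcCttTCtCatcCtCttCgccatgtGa
Atp5g3: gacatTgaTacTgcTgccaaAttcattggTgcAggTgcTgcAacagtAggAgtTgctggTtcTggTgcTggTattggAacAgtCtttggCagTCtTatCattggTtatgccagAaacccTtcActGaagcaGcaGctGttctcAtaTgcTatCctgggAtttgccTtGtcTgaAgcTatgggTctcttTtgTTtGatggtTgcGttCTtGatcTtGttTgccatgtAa
Of the 75 codons before the stop, 52 differ and 0 change the encoded amino acid. In this stretch Atp5g3 matched Atp5g1 at 79.8% and Atp5g2 at 78.5% of bases, and Atp5g1 matched Atp5g2 at 85.1%. The longest run of bases shared by a pair of these transcripts was 21, between Atp5g1 and Atp5g2, against 11 and 9 bases for Atp5g3 with Atp5g1 and with Atp5g2. The isoform pairs of complex IV were no closer, with 66.6% to 71.4% identity of aligned coding bases and shared runs of 10 to 14 bases. A read of 50 bases could therefore not match both genes of any of these pairs exactly. Matches to further genes are another matter, described below, with 66.0% and 87.4% of the 50-base stretches of Atp5g1 and Atp5g2 shared and 0% of Atp5g3. The part of this in the Atp5g3 share was not tested.

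Sequence shared with other genes, many of them annotated pseudogenes, was found in other members, and subunits that shared more of it tended to have lower levels. Annotated transcripts were cut into all their overlapping words of 50 bases, since a read from a word also found in another gene has more than 1 possible origin. The share of words also present in any transcript of another gene was counted in 1 transcript per gene. This was the transcript of middle length, or the shorter middle one where the number was even. For Atp5g1 it was the transcript of 596 bases, and coding bases and shared runs were taken from the same transcripts. How reads with several matches were counted, and how long the reads were, is not given in the sources used here. At least 20% of words were shared in 11 of the 41 subunits, beside 6.78% of the 15247 genes with an annotated transcript, and at least 40% in 6, beside 3.96%. Over 40% were Atp5g2 (87.4%), Atp5l (68.5%), Atp5g1 (66.0%), Cox7c (53.0%), Atp5h (50.5%) and Uqcrb (43.2%). Cycs shared 28.2% of its words, with 43 other genes, of which 10 were annotated as pseudogenes. For Atp5l 12 of 13 sharing genes were annotated as pseudogenes, and for Cox7c, Atp5g1, Atp5g2, Uqcrb and Atp5h all of them, 2 to 4 genes each.

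The subunits whose coding sequence was shared throughout were, with Cox7b, the subunits under 10 RPKM outside the muscle, lung and testis isoforms. Every coding base of Cycs, Cox7c, Atp5l, Atp5g1, Atp5g2 and Uqcrb lay in a word found in another gene, and these 6 genes ranged from 0.69 to 9.21 RPKM, with a median of 0.925 RPKM. The 7 genes with 50% to under 100% of coding bases in such words ranged from 24.4 to 78.2 RPKM, with a median of 40 RPKM. The 9 genes with a smaller share ranged from 7.98 RPKM, the mean of Cox7b, to 559 RPKM, with a median of 69.9 RPKM. The 19 genes with no such base had a median of 72.6 RPKM, and the 14 of them that are not alternative isoforms had a median of 153 RPKM and a lowest value of 42.0 RPKM. The groups with all coding bases covered and with 50% to under 100% covered did not overlap in mean level. The class with a smaller share and the whole class with none, which began at 0.413 RPKM, overlapped both. These classes were not planned beforehand, and the alternative isoforms were set aside after the values were seen. Coding bases were marked in the members only, so no share over all genes stands beside these classes. By words of the whole transcript, the median over all genes was 4.48 RPKM with at least 20% shared and 6.47 RPKM below that.

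Reading frames of 3 low members and of Cox8a, the highest complex IV gene, were picked as examples of this contrast. Others departed from it, such as Atp5h, with 90.1% of coding bases covered at 32.0 RPKM, and Cox6a2, with 0% covered at 0.413 RPKM. The coding sequences are from GENCODE M21 on GRCm38, with capitals for bases inside a 50-base word found in another gene's transcript. Of Cycs and Atp5l, with 318 and 312 coding bases, the first 300 bases are shown, and Cox7c and Cox8a are shown whole. They span chr6:50565237-50565660 (Cycs), chr13:86045753-86046675 (Cox7c), chr9:44913368-44920661 (Atp5l) and chr19:7215389-7217512 (Cox8a), all on the minus strand, from transcripts with 3, 3, 3 and 2 exons.
Cycs: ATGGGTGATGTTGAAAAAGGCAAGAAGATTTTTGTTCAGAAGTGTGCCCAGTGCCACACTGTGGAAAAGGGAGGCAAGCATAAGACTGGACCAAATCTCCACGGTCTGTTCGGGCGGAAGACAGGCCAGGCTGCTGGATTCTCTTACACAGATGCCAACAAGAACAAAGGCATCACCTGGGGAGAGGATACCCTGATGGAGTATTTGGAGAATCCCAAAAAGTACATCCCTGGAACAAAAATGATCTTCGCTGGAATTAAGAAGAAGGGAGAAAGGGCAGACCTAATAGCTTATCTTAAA
Cox7c: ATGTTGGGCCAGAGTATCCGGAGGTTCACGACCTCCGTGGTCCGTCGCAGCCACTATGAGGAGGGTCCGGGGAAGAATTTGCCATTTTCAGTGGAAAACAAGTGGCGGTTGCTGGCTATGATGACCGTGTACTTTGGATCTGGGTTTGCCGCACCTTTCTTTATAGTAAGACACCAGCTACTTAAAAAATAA
Atp5l: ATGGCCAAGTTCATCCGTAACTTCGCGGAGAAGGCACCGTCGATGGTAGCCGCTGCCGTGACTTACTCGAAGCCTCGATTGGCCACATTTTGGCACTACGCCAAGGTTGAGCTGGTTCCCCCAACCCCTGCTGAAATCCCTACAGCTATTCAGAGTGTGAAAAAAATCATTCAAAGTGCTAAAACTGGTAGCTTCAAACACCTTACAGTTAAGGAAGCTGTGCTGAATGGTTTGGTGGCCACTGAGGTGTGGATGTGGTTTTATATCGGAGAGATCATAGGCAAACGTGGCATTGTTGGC
Cox8a: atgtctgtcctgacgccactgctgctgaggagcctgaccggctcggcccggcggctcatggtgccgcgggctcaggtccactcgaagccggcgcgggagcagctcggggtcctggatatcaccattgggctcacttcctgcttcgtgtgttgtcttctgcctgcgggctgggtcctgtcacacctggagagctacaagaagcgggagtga
Cycs, Cox7c and Atp5l are in capitals throughout, and their mean levels were 0.690, 0.850 and 0.913 RPKM. Over their whole transcripts, which reach beyond the coding bases, 28.2%, 53.0% and 68.5% of words were shared. Cox8a has no capital, and its mean level was 256.2 RPKM.

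As a description over genes, which are not replicates and share the same libraries, the share of 50-base words and the log2 mean level had a Spearman correlation of -0.42 and a Pearson correlation of -0.55 over the 41 subunits. Without the alternative isoforms Cox4i2, Cox6a2, Cox6b2, Cox7a1 and Cox8b, a subset chosen after the values were seen, they were -0.68 and -0.77 over 36 genes. Over the 15247 genes of the tables with a transcript they were -0.03 and -0.05. With words of 36 and of 100 bases the values over the 36 genes were -0.73 and -0.66 for Spearman and -0.77 and -0.79 for Pearson. Atp5h, at 32.0 RPKM with 50.5% of its words shared, and Atp5o, at 61.0 RPKM with 35.5% shared, were not low. In the lists of partner genes, the copper chaperone Cox17 was at 23.4 RPKM with 52.7% shared and the ADP/ATP carrier Slc25a5 at 77.0 RPKM with 46.6% shared, while the phosphate carrier Slc25a3 was at 2.94 RPKM with 3.90% shared. The part of shared sequence in the low levels was not tested, since reads were not analysed here.

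**Figure D3:**
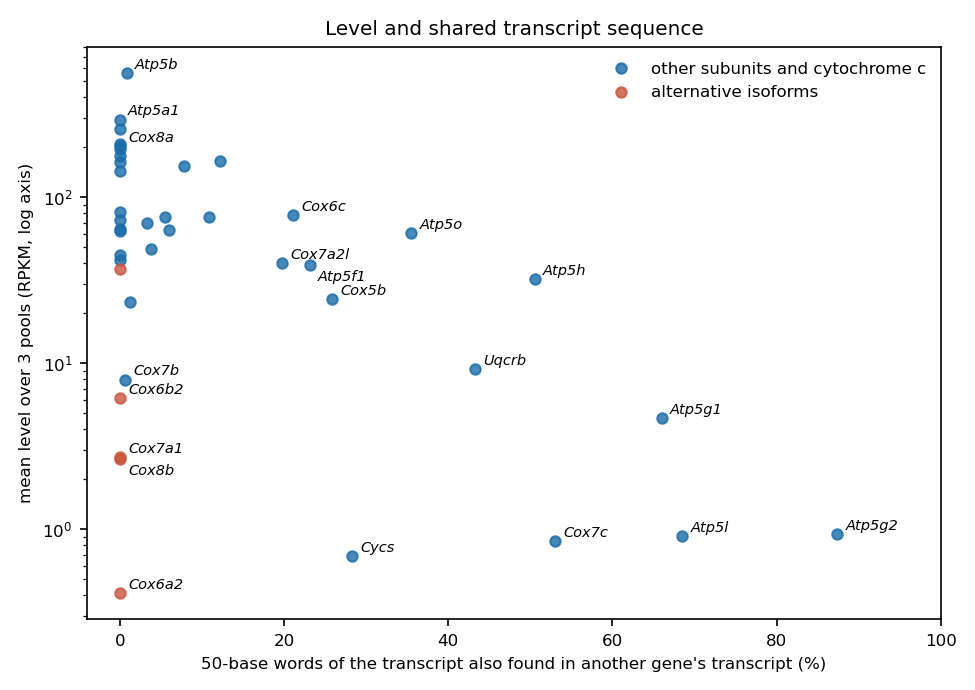
Mean level over 3 pools (RPKM, log axis) against the percentage of a transcript's 50-base words found in another gene's transcript, with 1 point for each of the 41 subunits and the 5 alternative isoforms in a second colour. Genes under 1 RPKM lie either above 28% shared words (Cycs, Cox7c, Atp5l, Atp5g2) or among the alternative isoforms (Cox6a2).

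Between the pools, 1 subunit gene passed the test of variation, Cox7b. Each gene's variance over the 3 pools of scaled log2(RPKM + 0.1) was set against the variance usual at its level, with limma's robust trended prior and Benjamini-Hochberg adjustment over 12562 genes. The p-values measure the spread between these pools only. The test called 5.41% of the genes, and 1 of the 39 members that reached a mean of 1 RPKM, a count near that background. The 5 members under this mean, Cox6a2, Cycs, Cox7c, Atp5l and Atp5g2, were not tested. Cox7b, a small subunit of complex IV encoded on the X chromosome, was at 23.84, 0.04 and 0.05 RPKM in pools 1, 2 and 3 (adjusted p = 3.02e-05, limma). Pool 1 was in the range of Cox5b, and the other pools were close to 0. Without pool 1 the call was lost, and the mean of Cox7b describes no pool.

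Cox7b belongs to the genes whose symbol equals another gene's symbol plus a digit, or is the shorter of such a pair, here Cox7b and Cox7b2. Such symbols, called digit-extended here, belonged to 2192 genes and to 4 members, Cox7b, Cox6c, Atp5j and Atp5j2. Without them the same test called 2.17% of 10832 genes and 0 of 35 members. Atp5j, coupling factor 6, had the next smallest adjusted p among the members (0.0883, limma; unadjusted p = 0.00508), with pool 2 above both others. In the same pool its namesake Atp5j2, which encodes an unrelated subunit, was at its lowest. Whether values had moved between rows of like names was not tested. At an unadjusted p under 0.05 limma's robust prior gave 4 members, Cox7b, Atp5j, Cox8b (adjusted p = 0.362) and Uqcrb (adjusted p = 0.528). The share of all genes at this unadjusted threshold is not given here for the robust prior, so nothing is read from that count. With limma's non-robust prior 0 members and 0 genes were called, with 2 members and 704 genes at an unadjusted p under 0.05.

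Most subunits shared their highest pool, with shifts that did not pass the test in single genes. After scaling, 34 of 41 subunits were highest in pool 2, and 31 of the 36 tested, where 34.7% of all genes tested were highest in pool 2. All 9 complex III genes, 13 of 16 complex IV genes and 11 of 15 ATP synthase genes were highest there. The median deviation of complex III from the gene mean was -0.05, 0.20 and -0.15 on the log2 scale in pools 1, 2 and 3. That of complex IV was -0.05, 0.16 and -0.13, and that of ATP synthase -0.04, 0.16 and -0.10. The spans were 0.35, 0.28 and 0.26, beside 0.002 over all genes, which the scaling sets near 0. Complex II behaved alike, with 4 of 4 genes highest in pool 2 and a span of 0.33. Markers of other tissues also differed in that pool, where the median deviation was 1.05 for skeletal muscle, 0.24 for heart or slow muscle, 0.28 for pigment epithelium and -0.66 for lens. For markers of retinal cells it was 0.04 in rods, 0.05 in cones and -0.08 in Muller glia. It was -0.08 in bipolar, -0.05 in amacrine and -0.01 in ganglion cells. The variance test called 3 of 5 tested skeletal muscle markers, 4 of 7 lens markers, 3 of 5 pigment epithelium markers and 0 of 1 tested heart marker. The pigment epithelium markers were highest in pool 1 for 4 of 5, with median deviations of 0.52, 0.28 and -0.71 in pools 1, 2 and 3. Only Rpe65, at 6.25, 20.06 and 6.74 RPKM, was highest in pool 2. The part of these tissues in the shift of the subunits was not tested. The deposited values without scaling were highest in pool 2 for 34 of the 36 tested subunits and for 64.3% of all genes.

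Transcript length moved with this pattern. The median annotated transcript was 727 bases long in the subunits and 2816 bases over all genes with one. Once the trend of the deviations on length, taken as medians of 20 length bins over all genes, was removed, 17 of the 36 tested subunits were highest in pool 2, beside 29.6% of 12408 genes. The spans then were 0.15, 0.09 and 0.14 for complex III, complex IV and ATP synthase. This correction was chosen after the values were seen, and the part of length in the pattern was not tested further.

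**Figure D4:**
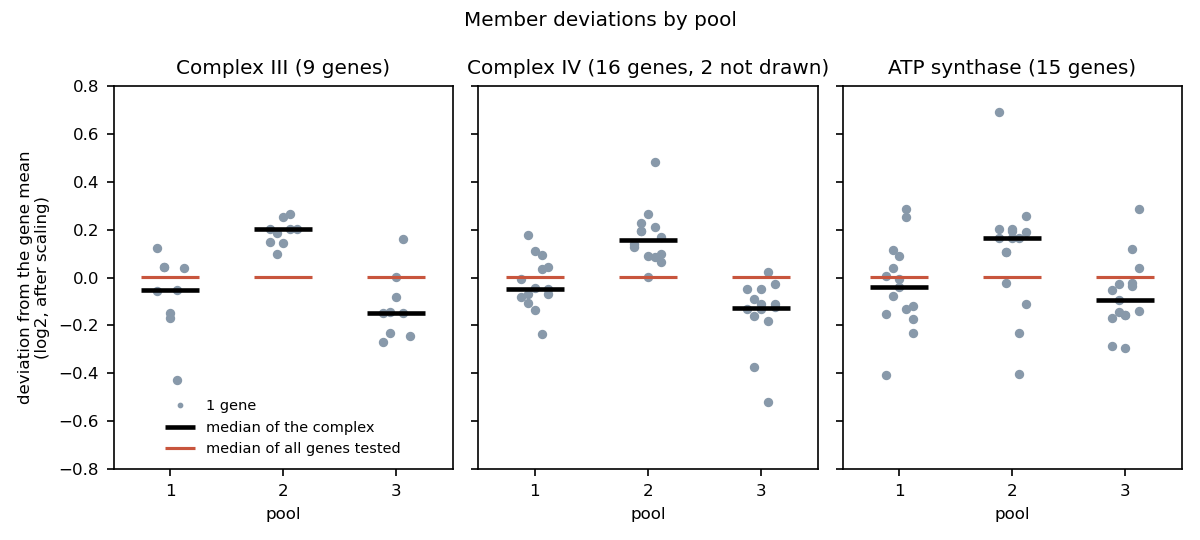
Deviation of each subunit from its own mean over the pools (log2, after scaling) in pools 1, 2 and 3, by complex, with bars at the median of the complex and of all genes tested. Cox7b and Cox6a2 lie beyond the axis and are not drawn. The medians of all 3 complexes lie at 0.16 to 0.20 in pool 2 and below 0 in pools 1 and 3.

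Most genes that build, complete and serve these complexes were at lower or like levels than the median subunit, with Vdac1 and Ndufa4 well above it. None of those tested passed the test of variation. Over 7 lists with 43 genes among the rows, 0 of 41 tested were called with limma's robust prior, with 0 at an unadjusted p under 0.05, and 0 and 0 with the non-robust prior, beside 5.41% of all genes called with the robust prior. Of 3 subunits named outside the symbol pattern, Ndufa4, now counted to complex IV, was at 98.37, 167.29 and 131.40 RPKM. The ATP synthase proteolipid 2010107E04Rik had a mean of 38.1 ± 6.19 RPKM and Usmg5, a small subunit of the dimer, 1.42 ± 0.416 RPKM with 40.6% of its words shared. Atpif1, the inhibitor of ATP hydrolysis by the synthase, had a mean of 65.3 ± 12.7 RPKM, at the level of the synthase's own subunits, beside the assembly factors Tmem70 at 11.7 ± 2.50 RPKM and Atpaf2 at 7.68 ± 0.630 RPKM. Complex III assembly had 4 of 5 genes among the rows, led by Uqcc at 19.9 ± 2.78 RPKM, Ttc19 at 12.2 ± 0.707 RPKM and Bcs1l, which inserts the Rieske protein, at 6.80 ± 0.695 RPKM. Complex IV assembly had 14 of 22 genes among the rows and 12 tested, led by Cox19 at 34.6 ± 6.13 RPKM, Surf1 at 24.1 ± 2.26 RPKM and Cox17 at 23.4 ± 4.69 RPKM. In that list the copper chaperone Sco2, with 73.2% of its words shared, was listed at 0 in every pool, and Pet117, with all words shared, at 0, 0 and 0.04 RPKM.

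Of the partner carriers, the outer membrane channels Vdac1 and Vdac2 were at 164 ± 29.2 and 49.6 ± 6.35 RPKM, and Slc25a5 at 77.0 ± 10.7 RPKM. The succinate dehydrogenase genes ranged from 45.3 RPKM for Sdhd to 86.5 RPKM for Sdha, with Sdhc at 66.4 ± 18.7 and Sdhb at 52.5 ± 10.1 RPKM. Among transcriptional regulators of these genes, Yy1 at 20.5 ± 2.04 RPKM, the coactivator Ppargc1b at 19.1 ± 0.446 RPKM and the receptor Esrra at 18.0 ± 1.64 RPKM were highest. The 6 subunits of the mitochondrial genome on the list were not analysed here.

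The promoters of the subunits were searched for the letters of known regulators of respiratory genes. Windows from 250 bases before to 50 after the start, from RefSeq on GRCm38.p6, matched 32 of the 41 subunits and were searched on both strands for exact letters, with matches of different motifs allowed to overlap. The palindromic consensus of nuclear respiratory factor 1 (NRF1) was in 4 of 32 (12.5%), namely Uqcrc1, Cox6a1, Atp5k and Atp5g2, beside 2.03% of 12061 genes of the tables and 1.07% of 27025 genes with a window. The core of ETS factors such as GABP, CCGGAAG, was in 10 of 32 (31.2%), Cox8a and Atp5e among them, beside 17.4% and 9.93%. The YY1 letters AANATGGCG were in 3 of 32, Atp5b, Atp5j and Atp5j2 (9.38%), beside 5.06% and 2.76%. The TATA box letters TATAAA were in 2 of 32, Cox8b and Atp5l (6.25%), beside 9.68% and 15.7%. Cox6a1 and Atp5k held both the NRF1 and the ETS letters. The NRF1 letters stood in Uqcrc1 at 176 RPKM and in Atp5g2 at 0.937 RPKM alike. These are matches of letters, described without a test, and binding was not measured.

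The 3 genes that share the letters of the pattern but encode no subunit were lower than most subunits. Atp5sl was at 25.16, 29.19 and 20.52 RPKM, Cox4nb at 21.14, 23.84 and 18.54 RPKM and Atp5s at 4.19, 4.79 and 4.6 RPKM. None was called as varying between pools, with an adjusted p of 0.993 for each (limma).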

How the data were processed

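RNA sequencing of retina pools gave 3 deposited columns, 1 per biological replicate by the sample titles. The deposited values were taken as RPKM from the values alone: they have 2 decimals, and multiplied by annotated length (kb) they added up to 785773, 828947 and 729009 in pools 1, 2 and 3, under the RPKM bound of 1000000. RPKM and FPKM cannot be told apart from these values. Per the submitters' processing notes the authors used GSNAP, HTSeq and the mm9 build. Versions, the annotation, the strand setting, the read length, the treatment of reads with several matches and the row filter are not stated in the sources available here. No step of whole reads could be read from the low values of short genes, so the depth is unknown and no counting interval is given. Each table had 15468 rows, and 3 symbols on repeated rows were kept once.

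Columns were scaled by trimmed means of their log ratios (30% of ratios and 5% of means trimmed), with factors of 0.984, 1.09 and 0.931. Without them the pool medians of all genes stood at -0.02, 0.13 and -0.10 (log2). Variation was tested on log2(RPKM + 0.1) for genes averaging at least 1 RPKM. The tool was limma 3.58.1, run in R 4.3.3 beside statmod 1.5.0, with an F test of each gene's variance against the robust trended prior, at an adjusted p of 0.05. Levels are printed as deposited, isoform ratios are on the log2(RPKM + 0.1) scale, and ratios between other subunits are geometric means over pools of the deposited values with nothing added. Transcripts and coding sequences came from GENCODE M21 (GRCm38) and promoters from RefSeq (GRCm38.p6). No coordinates of the mm9 build are printed, and the words were compared on the sense strand. Genes named with values in every pool are the isoform families, the highest and lowest 3 of each complex, the called gene and the catalytic or named-role subunits. Of the partner lists, the highest 3 by mean and any called gene are named. A few others are named after their values were seen, for their shared words. The members and lists were chosen with earlier results of these data known.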

Additional observations from a re-analysis of the deposited data

How the results depend on the processing

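The count of members varying between pools was 1, and was 0 with limma's non-robust prior, 3 without scaling (Cox7b, Atp5j at an adjusted p of 0.0102 and Cox8b at 0.0077) and 0 without the digit-extended symbols. It ranged from 0 to 1 when each pool was left out in turn, with 0 without pool 1. The count of genes varying between pools was 679 of 12562, and was 794 without scaling and 0 with the non-robust prior. It was 235 without the digit-extended symbols and 302 to 467 with each pool left out, lowest without pool 2. Median levels moved beyond 1 SD with geometric means, to 17.7 RPKM in complex IV and 39.6 RPKM in ATP synthase. They moved likewise without members sharing 20% or more of their words, an alternative chosen after seeing the data, to 109.8 RPKM in complex III and 87.1 RPKM in ATP synthase. The span between pools of the complex III, complex IV and ATP synthase medians was 0.58, 0.51 and 0.49 without scaling (log2). It was 0.15 and 0.085 in complex III and complex IV with the length trend removed. With each pool left out it ranged from 0.10 to 0.35, from 0.11 to 0.27 and from 0.12 to 0.25, lowest without pool 2. The share of the summed values held by the members was 0.562% with values multiplied by length. The median isoform ratio was 4.62 (log2) and 3.89 over the complex IV pairs alone, chosen after seeing the data. Under the other alternatives it stayed between 4.32 and 4.71, and 40 of 40 values of single pairs under the alternatives kept their direction. Depth is unknown, which limits what can be said of genes near 0. No paired analysis was possible because there was 1 group.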
